A study of Mus musculus with 9 samples.

Results

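Mature miRNAs of subcutaneous adipose tissue (fat that lies under the skin) were compared between mice heterozygous for an endothelial knockout of Ago1 (labelled Hete KO, here Hete_KO) and wild-type littermates (WT). These groups hold 6 of the 9 small RNA libraries of the study, 3 in each, and were chosen by the genotype label alone. The other 3 libraries are of homozygous knockout mice (Homo KO, here Homo_KO), and their values are given for scale. Every library came from an individual mouse aged 24 weeks that had been kept on a diet rich in fat and sucrose for 16 weeks, beginning at 8 weeks of age, the WT mice included, so no group shows the tissue on standard chow. The sources used here do not give the strain, the sex, the Cre driver that limits the deletion to endothelial cells or the extent of the deletion. Each library has a value for the same 860 mature miRNAs, of which 489 were abundant enough to be tested. The values are on a quantile-normalized log2(x + 1) scale, so a difference of 1 is about a doubling, and rare miRNAs differ by more than their log2 values show. The files list no mRNA, so the loss of Ago1 itself was not checked here.

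Ago1 encodes an Argonaute protein. Argonautes hold a mature miRNA and use its seed, the stretch near the 5′ end, to find target mRNAs, which are then repressed or degraded. A miRNA hairpin is cut into a duplex with a 5p and a 3p arm. Usually an arm called the guide stays in Argonaute, while the passenger arm is discarded, and a miRNA without an Argonaute is short-lived. miRNAs with the same seed form a family with shared targets, and hairpins that lie side by side are often cut from a single transcript. Endothelial cells line the vessels of fat and give only part of its RNA, so the libraries mix endothelial miRNAs with those of adipocytes, mural cells, blood cells and any skin or muscle taken along. In such bulk tissue, fewer cells of a type and less of a miRNA per cell cannot be told apart.

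The sequences below carry the differences described in the following paragraphs. They are RefSeq mature sequences on GRCm38.p6, written 5′ to 3′, with the seed (bases 2 to 8) in capitals. The first set shows miR-215-5p, which had the smallest p-value, beside its relative miR-192-5p. The next shows both arms of miR-30e and miR-30a, the third the pair from the miR-17-92 cluster with the smallest p-values, and the others the X-linked miRNAs of the miR-322 and miR-221 clusters with miR-125b-5p for comparison. The last set holds miR-203-3p, miR-126a-3p, miR-129-2-3p and the look-alikes miR-142a-5p and miR-3964.
miR-215-5p: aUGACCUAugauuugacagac
miR-192-5p: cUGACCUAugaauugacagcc
miR-30e-3p: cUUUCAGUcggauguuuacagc
miR-30a-3p: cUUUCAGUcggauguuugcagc
miR-30e-5p: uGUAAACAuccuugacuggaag
miR-30a-5p: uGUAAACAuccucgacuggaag
miR-18a-5p: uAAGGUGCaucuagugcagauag
miR-20a-5p: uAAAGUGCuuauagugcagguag
miR-322-5p: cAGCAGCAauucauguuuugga
miR-503-5p: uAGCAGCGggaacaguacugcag
miR-351-5p: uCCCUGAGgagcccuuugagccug
miR-125b-5p: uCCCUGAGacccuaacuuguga
miR-221-3p: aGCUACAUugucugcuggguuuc
miR-222-3p: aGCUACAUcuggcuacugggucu
miR-203-3p: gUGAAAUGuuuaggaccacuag
miR-126a-3p: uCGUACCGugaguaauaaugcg
miR-129-2-3p: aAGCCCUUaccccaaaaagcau
miR-142a-5p: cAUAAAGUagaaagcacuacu
miR-3964: aUAAGGUAgaaagcacuaaa

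The depth of the libraries is unknown, since the deposited values keep no counts. What remains of it is how many miRNAs sit at the lowest value of a library: 70, 104 and 63 in the WT mice and 101, 152 and 105 in the Hete_KO mice. Skeletal muscle miRNAs differed widely between mice of the same genotype: the mean of the muscle miRNAs miR-206-3p, miR-133b-3p, miR-133a-3p and miR-1a-3p was 13.40, 13.73 and 7.56 in WT and 10.04, 14.35 and 8.76 in Hete_KO. WT replicates 1 and 2 and Hete_KO replicate 2 thus stood apart as rich in muscle miRNAs, and the last of these also had the most miRNAs at its lowest value. The setting without these 3 libraries keeps WT replicate 3 as the only WT mouse. All differences and medians given for that setting rest on this mouse. Hete_KO replicate 1 stood apart in miRNAs of the miR-200 family, given with the marker lists.

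Few miRNAs passed the adjusted test between Hete_KO and WT, and their number ranged from 0 to 34 over the alternative settings. Of 489 miRNAs tested with limma, 2 passed a Benjamini-Hochberg adjusted p of 0.05, which is 0.409% of those tested, and both rose in Hete_KO: miR-215-5p and miR-30e-3p. No miRNA fell by that test, although 77 of 489 (15.7%) had an unadjusted p under 0.05, 42 of them higher (8.59%) and 35 lower (7.16%). In 84 miRNAs (17.2%) the 3 Hete_KO and 3 WT values did not overlap, 42 higher (8.59%) and 42 lower (8.59%). The median difference over all tested miRNAs was −0.02 on the log2 scale, and 231 were higher (47.2%) and 257 lower (52.6%).

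miR-215-5p was at 3.20, 3.11 and 3.44 in WT and at 5.78, 6.17 and 5.26 in Hete_KO. All Hete_KO mice lay well above all WT mice, and the groups were separated by more than the spread within either. The difference was 2.49 ± 0.28 (SE, n = 3 mice a group, limma adjusted p = 0.00339), or 5.60-fold on this scale. In Homo_KO miR-215-5p was at 5.10, 5.06 and 5.34, which is 1.92 above the same WT mice (adjusted p = 0.00942). The difference between the knockouts was −0.57 (adjusted p = 0.645). It is a rare miRNA, and its WT mean of 3.25 lay under the filter level of 3.46, so that it was tested because of its level in the knockouts. Mir215 lies at chr1:185313581-185313692 (GRCm38, + strand) in an exon of the noncoding gene 2010103J01Rik. Mir194-1, at chr1:185313319-185313385 in an intron of the same gene, is in its cluster. In the list of miR-192, miR-194 and miR-215, 33.3% of 3 tested miRNAs were higher and 66.7% lower. miR-215-5p was the only higher member, and the list's median ranged from −0.86 to 0.55 over all alternatives. miR-192-5p, which shares the seed UGACCUA and 18 of 21 bases, was far more abundant and scattered, at 9.10, 11.66 and 11.51 in WT and 10.68, 10.58 and 10.68 in Hete_KO, so the groups overlapped. miR-192-5p and miR-215-5p are known from gut, kidney and liver epithelium.

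miR-30e-3p was at 11.85, 11.98 and 11.92 in WT and at 12.96, 12.73 and 12.80 in Hete_KO. Both groups were tight and did not overlap. The difference was 0.91 ± 0.15 (SE, n = 3 mice a group, limma adjusted p = 0.0316), or 1.88-fold. The Homo_KO mice, at 12.21, 12.69 and 12.53, lay between the groups, with a difference from WT of 0.56 (adjusted p = 0.0583) and from Hete_KO of −0.35 (adjusted p = 0.593). miR-30e-3p is the passenger arm of Mir30e, at chr4:120772606-120772697 (GRCm38, − strand) in an intron of Nfyc.

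These calls rest on few mice. miR-30e-3p passed no longer when WT replicate 1 or 2, Hete_KO replicate 2 or 3 or Homo_KO replicate 3 was left out. Its limma adjusted p was then 0.0583 to 0.201. It also missed the threshold with only Hete_KO and WT in the fit (adjusted p = 0.0609) and without a variance trend (adjusted p = 0.0646). Over all alternatives its adjusted p was 0.0100 to 0.245, while its difference stayed between 0.84 and 0.96. miR-215-5p passed without each single library, and missed the threshold only with each library's count of lowest-value miRNAs as a covariate (adjusted p = 0.0885) and without the 3 libraries rich in muscle miRNAs (adjusted p = 0.0621), over a range of 0.00168 to 0.0885. miR-30e-3p also missed it in both of these settings (adjusted p = 0.245 and 0.223). The number of calls ranged from 1 to 24 when single libraries were left out: 24 without Hete_KO replicate 1, 12 without WT replicate 3, 3 without WT replicate 2, and 1 without Hete_KO replicate 2 or 3, without WT replicate 1 or without Homo_KO replicate 3.

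**Figure D1:**
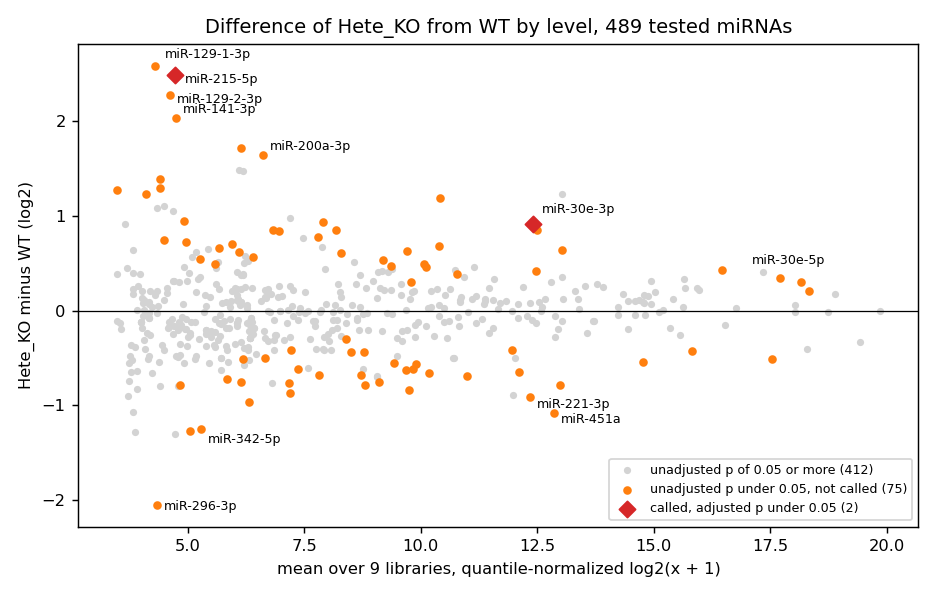
Difference of Hete_KO from WT (y axis, log2) against the mean over the 9 libraries (x axis, quantile-normalized log2(x + 1)) for the 489 tested miRNAs, each a point. The 2 red diamonds are the called miRNAs, miR-215-5p at 2.49 and miR-30e-3p at 0.91, and the 75 orange points had an unadjusted p under 0.05 without passing the adjusted threshold.

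The next 8 higher miRNAs by unadjusted p did not pass the test, and 3 of them belong to the miR-30 family, described with that family. miR-3970 was at 6.91, 7.30 and 7.53 in WT and at 8.21, 8.02 and 8.30 in Hete_KO, a difference of 0.93 ± 0.18 (limma adjusted p = 0.0548). miR-203-3p, a miRNA of skin epithelium, was at 11.71, 11.79 and 12.16 in WT and at 12.38, 12.92 and 12.92 in Hete_KO, a difference of 0.85 ± 0.18 (adjusted p = 0.0604). Neither miRNA overlapped between the groups. The Homo_KO mice were at 8.13 to 8.39 for miR-3970 and at 12.73 to 12.92 for miR-203-3p, which overlaps with Hete_KO in both.

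miR-129, a miRNA known from brain, had the highest differences beside miR-215-5p. The WT means of its 3p arms, 2.41 for miR-129-1-3p and 2.92 for miR-129-2-3p, lay under the filter level, so that both were tested because of their level in the knockouts. In all, 8 tested miRNAs had a WT mean under that level, and 4 of them did not overlap between WT and Hete_KO, against 17.2% of all tested miRNAs. Such miRNAs enter the test only through a higher level in the knockouts, so this count is no support for a difference. A Hete_KO mean under that level was found in 6 tested miRNAs, of which 1 did not overlap. miR-129-1-3p was at 1.06, 3.31 and 2.84 in WT and at 4.27, 6.33 and 4.36 in Hete_KO, and miR-129-2-3p at 2.25, 3.54 and 2.95 against 4.57, 6.50 and 4.52. The groups did not overlap for either, but Hete_KO replicate 2 stood above the others of its group, and the differences of 2.58 ± 0.67 and 2.28 ± 0.54 missed the threshold (adjusted p = 0.0879 and 0.0797). Their partner arm miR-129-5p was also higher without overlap, by 1.72 ± 0.62 (adjusted p = 0.203). The 3p arms come from separate hairpins on chromosomes 6 and 2, at chr6:29022619-29022691 and chr2:94241364-94241453 (GRCm38). They are close copies of each other, so reads may be shared between them. miR-3964 was at 6.02, 6.14 and 6.08 in WT and at 6.77, 6.57 and 7.41 in Hete_KO, a difference of 0.84 ± 0.23 (adjusted p = 0.101). It matches miR-142a-5p at 17 of 20 aligned bases, so that reads of these miRNAs may have been split between them, and its value is uncertain for that reason.

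Among the 10 lower miRNAs with the smallest unadjusted p, none passed the test. All had groups that did not overlap, where 8.59% of all tested miRNAs were lower without overlap. They were chosen by p from these same values, so the lack of overlap adds no support. miR-18a-5p, of the miR-17-92 cluster, was at 7.77, 7.72 and 7.50 in WT and at 6.88, 6.87 and 6.95 in Hete_KO, a difference of −0.76 ± 0.14 (limma adjusted p = 0.0548). miR-351-5p, which shares the seed CCCUGAG with miR-125b-5p, was at 9.83, 9.62 and 9.77 in WT and at 9.23, 8.84 and 8.89 in Hete_KO, a difference of −0.75 ± 0.14 (adjusted p = 0.0548). These were the lower miRNAs nearest to the threshold. miR-20a-5p, miR-503-5p and miR-221-5p followed, with differences of −0.63, −0.79 and −0.87 (adjusted p = 0.0604 each), and their clusters are described with the other loci.

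miR-342-5p, from an intron of Evl, was at 6.53, 6.17 and 6.02 in WT and at 5.46, 4.73 and 4.78 in Hete_KO, a difference of −1.25 ± 0.29 (limma adjusted p = 0.0762). Its Homo_KO values of 4.94, 4.68 and 4.18 lay in the same low range, and there the difference of −1.64 from WT passed the test (adjusted p = 0.0283). The other arm, miR-342-3p, differed by −0.84 with overlapping groups, since Hete_KO replicate 1 was at 10.19, within the WT range of 10.03 to 10.60. miR-376a-3p, of the imprinted Dlk1-Dio3 region, was at 7.09, 7.03 and 6.73 in WT and at 6.19, 5.96 and 5.83 in Hete_KO, a difference of −0.96 ± 0.24 (adjusted p = 0.0825). The 2 remaining miRNAs of this group are miR-126a-5p and miR-451a, described with the cell type markers. The lowest difference of all tested miRNAs was that of miR-296-3p, at −2.05 ± 0.79 (adjusted p = 0.239). It was picked out after its values were seen: Hete_KO was at 3.11, 1.59 and 5.17 and WT at 4.98, 5.04 and 6.02, so the groups overlapped through Hete_KO replicate 3.

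**Figure D2:**
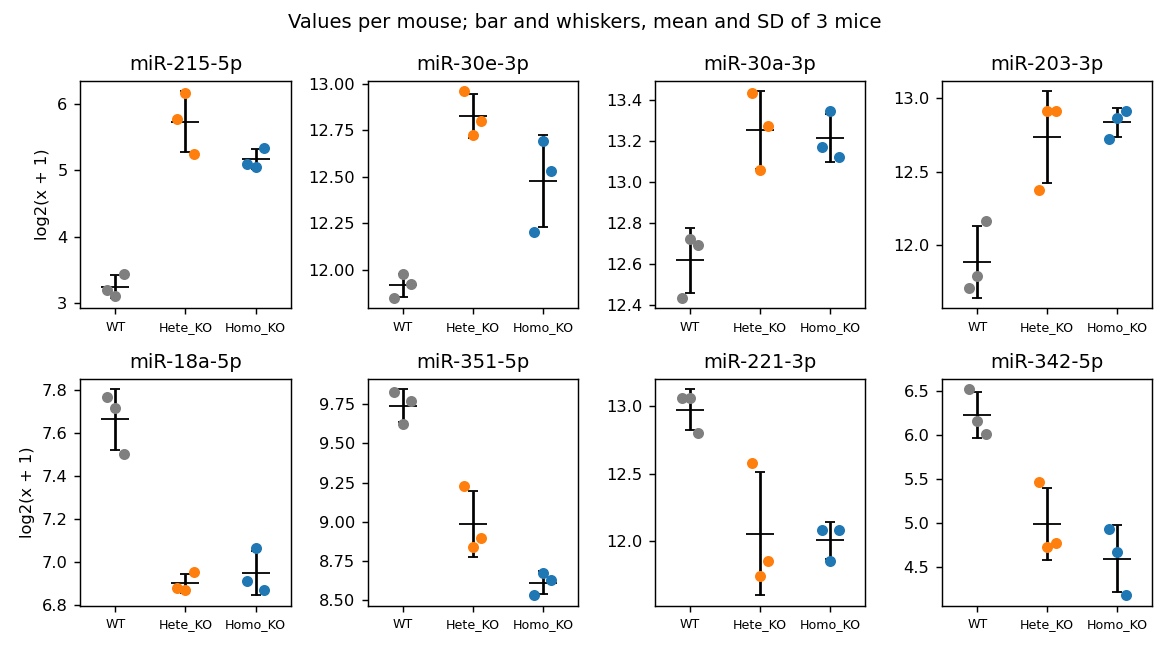
Values per mouse (y axis, quantile-normalized log2(x + 1)) of 8 miRNAs in WT, Hete_KO and Homo_KO, with a bar for the mean and whiskers for the SD of 3 mice. Each of these miRNAs, picked from those with the smallest unadjusted p, has Hete_KO values that do not overlap with WT. miR-221-3p has Hete_KO replicate 1 at 12.58, above the other Hete_KO mice at 11.74 and 11.85.

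The miR-30 family, abundant in fat and known to promote adipocyte formation, had higher means in Hete_KO in all its tested miRNAs. miR-30f was too rare to be tested, at 0 in all WT mice and at 1.87, 1.59 and 1.59 in Hete_KO. Mir30f has the same position as Mir30e, chr4:120772606-120772697, on the opposite strand. Whether its reads belong to other miR-30 arms was not tested. All 11 measured arms of miR-30a to miR-30e were tested, 11 had a higher mean in Hete_KO and 0 a lower one, and 7 did not overlap between the groups, against 8.59% higher without overlap among all tested miRNAs. The median difference was 0.34, against −0.02 over all 489, and 0.54 without Hete_KO replicate 3. Of the 11, miR-30e-3p alone passed the test. The mean level of the 11 was 12.08, 12.25 and 12.19 in the WT mice and 12.62, 12.69 and 12.64 in the Hete_KO mice, and at 12.48, 12.72 and 12.58 in Homo_KO. Every knockout mouse lay above every WT mouse in this mean. The mean includes the called miR-30e-3p, and the family was chosen with earlier results of these data known. This separation thus adds no support.

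Within the family the 3p arms, which are the passenger strands, differed by more than the 5p arms. The 6 tested 3p arms had a median of 0.65 and the 5 tested 5p arms of 0.28. miR-30a-3p was at 12.44, 12.73 and 12.69 in WT and 13.43, 13.06 and 13.27 in Hete_KO, a difference of 0.64 ± 0.14 (limma adjusted p = 0.0655). miR-30d-3p was at 7.26, 7.87 and 7.81 in WT and 8.24, 8.62 and 8.64 in Hete_KO, a difference of 0.85 ± 0.21 (adjusted p = 0.0825). In both the groups did not overlap, as was so for miR-30b-3p (difference 0.67) and miR-30c-2-3p (0.63). The exception among the 3p arms was miR-30c-1-3p, a rare miRNA from the same Nfyc intron as miR-30e, at 4.36, 4.61 and 4.36 in WT and 4.68, 5.47 and 4.11 in Hete_KO, with overlapping groups. Its difference of 0.31 turned to −0.05 without Hete_KO replicate 2 and to −0.27 with the count of lowest-value miRNAs as a covariate.

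Of the 5p arms, which carry the seed GUAAACA, miR-30e-5p was at 17.45, 17.58 and 17.45 in WT and at 17.83 in each of the 3 Hete_KO mice, a difference of 0.34 ± 0.08 (limma adjusted p = 0.0825). miR-30a-5p was at 18.22, 18.22 and 18.09 in WT and at 18.34, 18.34 and 18.47 in Hete_KO, a difference of 0.21. Both were without overlap, while miR-30b-5p, miR-30c-5p and miR-30d-5p overlapped, with differences of 0.28, 0.33 and 0.06. At this end of the scale quantile normalization leaves few levels, shared by all libraries, and a value can only move from level to level. miR-30e-3p and miR-30a-3p agree at 21 of 22 bases, as do miR-30e-5p and miR-30a-5p, so reads of these pairs may be split by counting. The gap between arms of a hairpin was tested separately and is given with the arms.

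The miR-26 family, which lies in introns of the Ctdsp phosphatase genes and is known to act in adipocyte differentiation, had 4 of 5 tested members higher and 1 lower, with a median of 0.43. miR-26b-5p was at 16.17, 15.94 and 16.52 in WT and at 16.64 in all 3 Hete_KO mice, a difference of 0.43 ± 0.14 (limma adjusted p = 0.161). miR-26b-3p (0.50) was also higher without overlap, and miR-26a-5p (0.30) overlapped. miR-26a-1-3p was at 1.94 to 2.74 in WT and 2.95 to 4.19 in Hete_KO, a difference of 1.27. Its WT mean of 2.40 lay under the filter level, so that it was tested because of its level in the knockouts. The family's count and median include miR-26a-1-3p. The family median was 0.12 without the 3 libraries rich in muscle miRNAs, where WT replicate 3 is the only WT mouse.

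let-7 and miR-98, the most abundant family of the tissue, had no common direction. Of 20 tested members 11 were higher and 9 lower, with a median of 0.10, which was 0.01 without the 3 libraries rich in muscle miRNAs and 0.26 (15 of 20 higher) with the count of lowest-value miRNAs as a covariate. let-7a-5p was at 19.42, 19.42 and 19.99 in WT and at 19.42, 18.99 and 19.42 in Hete_KO, and let-7f-5p at 18.99, 18.47 and 18.81 against 18.99, 18.81 and 18.99, with overlap in both. let-7k was at 8.89, 9.50 and 10.36 in WT and at 10.28, 10.95 and 11.11 in Hete_KO, a difference of 1.19 ± 0.35 (limma adjusted p = 0.119), and it shares the seed GAGGUAG with 9 other miRNAs of the family, so that its reads may be theirs in part.

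The family of miR-15 and miR-16, which restrain the cell cycle and have the 5p seed AGCAGCA, was mostly lower. Outside the miR-322 cluster, which has relatives of it, 8 of 11 tested miRNAs were lower and 3 higher, with a median of −0.19 and 3 lower without overlap, where 8.59% of all tested miRNAs were. With the count of lowest-value miRNAs as a covariate the median was −0.10. miR-15b-5p was at 12.66, 12.38 and 12.27 in WT and at 12.12, 11.47 and 11.79 in Hete_KO, a difference of −0.65 ± 0.18 (limma adjusted p = 0.118). miR-132 and miR-212, cut from 1 transcript that neurons and stimulated endothelial cells induce, had all 4 tested miRNAs lower, with a median of −0.24. This median was −0.42 without Hete_KO replicate 1, −0.39 without WT replicate 3, −0.14 without WT replicate 1 and −0.13 without Hete_KO replicate 3, and 1 of 4 was higher in the last 3 of these settings. Without the 3 libraries rich in muscle miRNAs 1 of 4 was higher too. miR-132-3p was at 9.40, 9.01 and 9.08 in WT and at 8.71, 8.26 and 8.45 in Hete_KO, a difference of −0.68 ± 0.18 (adjusted p = 0.0879) without overlap.

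Other families had medians nearer to that of all miRNAs, and most of these medians changed sign with libraries left out. The miR-29 median was 0.04 (5 higher and 2 lower), 0.19 with all 7 higher without Hete_KO replicate 1, and −0.06 with 6 of 7 lower without the 3 libraries rich in muscle miRNAs. For miR-130 and miR-301 it was 0.01 (4 and 3), 0.14 without Hete_KO replicate 1, −0.18 without WT replicate 2, and −0.20 with 6 of 7 lower without the 3 muscle-rich libraries. For miR-99, miR-100 and miR-125 it was 0.15 (7 and 4), −0.04 without WT replicate 2, and −0.18 with 9 of 11 lower without the 3 muscle-rich libraries. The setting without the muscle-rich libraries has WT replicate 3 as its only WT mouse, and no direction can be given for these 3 families.

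The median was −0.01 for miR-23, miR-27 and miR-24 (5 higher and 6 lower), with a range of −0.20 to 0.09 over all alternatives, and 0.02 for miR-10 and the Hox loci (4 and 3), with a range of −0.03 to 0.19. It was 0.16 for miR-148 and miR-152 (5 and 1) and −0.07 for miR-181 (1 and 5), which kept their sign, with ranges of 0.03 to 0.25 and −0.18 to −0.04. miR-130a-3p, of the miR-130 and miR-301 family, was at 9.90, 9.74 and 10.10 in WT and at 10.24, 10.64 and 10.92 in Hete_KO, a difference of 0.68 ± 0.19 (limma adjusted p = 0.101). Its groups did not overlap.

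The arms were then compared within hairpins, which asks whether the balance of guide and passenger differed when 1 Ago1 allele was lost. Both arms were abundant enough in 158 hairpins. The log2 level of the 5p arm minus that of the 3p arm was tested with limma, and none passed the adjusted threshold (0% called), while 16 had an unadjusted p under 0.05 (10.1%) and 27 did not overlap (17.1%), 10 toward the 5p arm and 17 toward the 3p arm. Across hairpins the passenger lay about as far below the guide in both groups: the mean of passenger minus guide was −4.42, −4.46 and −4.49 log2 units in the WT libraries and −4.52, −4.34 and −4.48 in Hete_KO. The median difference of Hete_KO from WT was −0.00 for guides and −0.01 for passengers. The arms of a hairpin had differences of the same sign in 116 of 158 hairpins (73.4%). Both arms were higher without overlap in miR-30e, miR-30a, miR-129, miR-330 and miR-26b and both lower in miR-503 and miR-221. No hairpin had 1 arm higher and the other lower without overlap. Taken singly, 30 guides and 24 passengers of the 158 hairpins did not overlap, against 17.2% of all tested miRNAs. The named hairpins were picked for their lack of overlap, so it adds no support. The 3p arm of miR-129 was also tested because of its level in the knockouts.

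The hairpin nearest to the threshold was miR-142a, the leukocyte hairpin in Mir142hg at chr11:87756864-87756927 (GRCm38). Its 5p arm minus its 3p arm was −1.63, −1.75 and −1.27 in WT and −0.51, −0.53 and −0.73 in Hete_KO. The groups did not overlap, and the difference toward the 5p arm was 0.96 ± 0.20 (limma adjusted p = 0.0856). In Homo_KO, against the same WT mice, the difference was 1.04 and passed the test over hairpins (adjusted p = 0.0452). The arms themselves were spread within Hete_KO: miR-142a-5p was at 11.47, 10.39 and 11.24 against 10.56 to 10.58 in WT, and miR-142a-3p at 11.98, 10.92 and 11.98 against 11.85 to 12.32. The look-alike miR-3964 was counted apart from miR-142a-5p.

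The other 5 hairpins named by the rule had an adjusted p of 0.147 each. For let-7e the value differed by 0.83 ± 0.24, toward the 5p arm, with let-7e-5p at a difference of 0.41 and let-7e-3p of −0.42. For miR-152 it differed by −0.87 ± 0.26, toward the 3p arm, as miR-152-5p was at 5.73 to 5.97 in Hete_KO against 6.41 to 6.79 in WT and miR-152-3p overlapped. For miR-1981 it differed by −0.69 ± 0.20, with miR-1981-3p at a difference of 0.70. For miR-1a, the muscle hairpin, it differed by −1.10 ± 0.29, toward the 3p arm, which is its guide. For miR-30d it differed by −0.79 ± 0.23, toward the passenger: the 5p arm exceeded the 3p arm by 10.73, 10.21 and 10.18 in WT and by 9.85, 9.47 and 9.44 in Hete_KO. miR-30e had the same direction, with 5.59, 5.60 and 5.52 in WT and 4.87, 5.11 and 5.03 in Hete_KO, a difference of −0.57 ± 0.19 (limma adjusted p = 0.226). The passenger's difference from WT exceeded the guide's by 0.43 for miR-30a, 0.38 for miR-30b, 0.79 for miR-30d, 0.57 for miR-30e and, with the passenger miR-30c-2-3p, 0.30 for miR-30c. The other miR-30c passenger, miR-30c-1-3p, had a difference of 0.31, below the 0.33 of the guide miR-30c-5p.

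**Figure D3:**
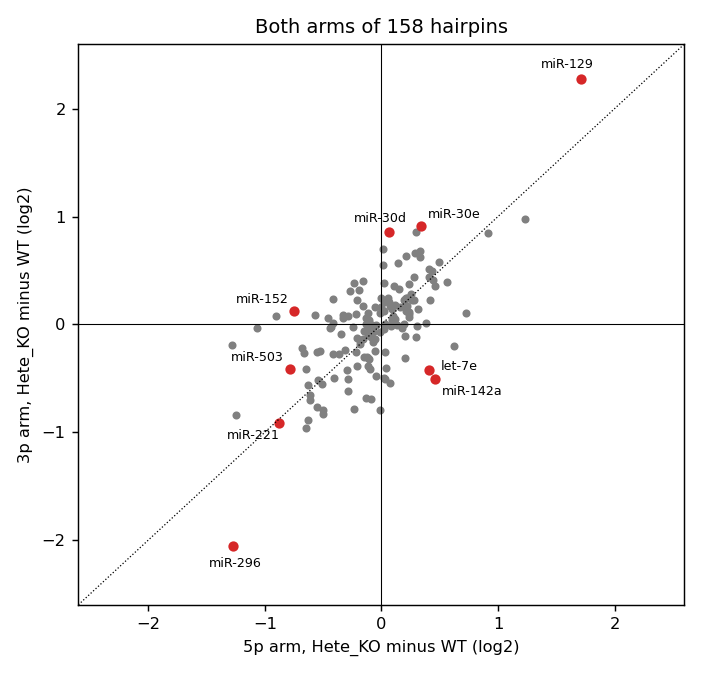
Difference of Hete_KO from WT for the 5p arm (x axis, log2) and the 3p arm (y axis, log2) of 158 hairpins, each a point, with equal differences on the dotted line. The named red points include miR-30d and miR-30e above the line, let-7e and miR-142a below it, and 116 of 158 hairpins lie in the quadrants where both arms have the same sign.

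Hairpin clusters, in which hairpins on 1 strand lie less than 10 kb from the next, had medians below 0, near 0 or above 0. In the miR-191 and miR-425 cluster on chromosome 9, 100% of 4 tested miRNAs were higher. Its median was 0.02 to 0.35 over all alternatives. The let-7f-2 and miR-98 cluster on the X chromosome had 75% of 4 tested miRNAs higher, with a median of 0.07 to 0.36 over all alternatives. The miR-30b and miR-30d cluster on chromosome 15 had a median of 0.48 and the miR-30c-1 and miR-30e cluster on chromosome 4 of 0.34, each with 4 of 4 tested miRNAs higher, and their miRNAs are described with the family. The miR-322 cluster on the X chromosome, chrX:53047997-53054349 (GRCm38, − strand), holds miR-322, miR-503, miR-351, miR-542 and the miR-450 hairpins; miR-322 and miR-503 are known for slowing the cell cycle. Of its 11 tested miRNAs 10 were lower and 1 higher, with a median of −0.41, and 6 were lower without overlap, where 8.59% of all tested miRNAs were. The mean level of the cluster was 8.28, 8.26 and 8.18 in WT, 7.77, 7.77 and 7.98 in Hete_KO and 7.73, 7.97 and 7.64 in Homo_KO. No knockout mouse reached the lowest WT mouse. The cluster was chosen with earlier results of these data known, so this separation adds no support.

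miR-503-5p was at 9.37, 9.60 and 9.01 in WT and at 8.48, 8.47 and 8.67 in Hete_KO, a difference of −0.79 ± 0.17 (limma adjusted p = 0.0604). The other arm, miR-503-3p, differed by −0.41, miR-450a-5p by −0.55 and miR-450b-5p by −0.46, each without overlap. miR-322-5p, the most abundant member, was at 12.32, 12.21 and 12.32 in WT and at 11.57, 12.09 and 11.92 in Hete_KO, a difference of −0.42 ± 0.16 (adjusted p = 0.26). miR-503-5p and miR-322-5p have near seeds, AGCAGCG and AGCAGCA, and share 11 of 22 aligned bases. The cluster thus holds 2 seeds of the miR-15 kind and, in miR-351-5p, the seed of miR-125. In Homo_KO miR-351-5p was at 8.53, 8.67 and 8.63, below all Hete_KO mice, but the difference of −0.38 between the knockouts did not pass the test (adjusted p = 0.593).

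The miR-221 and miR-222 hairpins, neighbours at chrX:19146294-19146971 (GRCm38, − strand), share the seed GCUACAU on their 3p arms and are known in endothelial cells as repressors of the receptor Kit. All 4 tested miRNAs had a lower mean in Hete_KO, with a median of −0.78. miR-221-3p was at 13.06, 13.06 and 12.80 in WT and at 12.58, 11.74 and 11.85 in Hete_KO, a difference of −0.91 ± 0.21 (limma adjusted p = 0.0762). Its other arm miR-221-5p was at 8.15, 7.70 and 7.59 against 7.06, 6.82 and 6.93. Neither arm of miR-221 overlapped. miR-222-3p was at 11.79, 11.51 and 11.29 in WT and at 11.51, 10.42 and 10.58 in Hete_KO, with Hete_KO replicate 1 inside the WT range, and miR-222-5p overlapped throughout (difference −0.09). Without the 3 libraries rich in muscle miRNAs, where WT replicate 3 is the only WT mouse, the median was −0.41, with 3 of 4 lower.

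The miR-17-92 cluster in Mir17hg, chr14:115043671-115044506 (GRCm38, + strand), known for driving proliferation and acting in vessel growth, had 8 of 9 tested miRNAs lower and 1 higher, with a median of −0.56 and 3 lower without overlap, against 8.59% of all tested miRNAs. Its mean level was 8.50, 8.30 and 8.23 in WT and 7.83, 7.87 and 7.90 in Hete_KO. The Hete_KO mice were close to each other and below all WT mice. This cluster too was chosen with earlier results known, so the separation adds no support. Besides miR-18a-5p, miR-20a-5p was at 10.19, 9.98 and 9.83 in WT and at 9.40, 9.27 and 9.44 in Hete_KO, and the rare miR-92a-1-5p differed by −0.91, with a Hete_KO mean of 3.44 just under the filter level. miR-17-5p, which has the seed AAAGUGC of miR-20a-5p and 21 of its 23 bases, overlapped, with a difference of −0.22 ± 0.16. miR-19b-3p differed by −0.57 with overlap. Without the 3 libraries rich in muscle miRNAs, where WT replicate 3 is the only WT mouse, the median was −0.31, with 8 of 9 lower.

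The paralogous clusters had medians near 0 with all libraries. The miR-106b, miR-93 and miR-25 cluster, chr5:138165321-138165818 (GRCm38), had 3 of 5 tested miRNAs higher and a median of 0.04, and the miR-106a to miR-363 cluster, chrX:52741693-52742567, 3 of 5 higher and a median of 0.01. The latter median ranged from −0.27 without WT replicate 2 to 0.24 without WT replicate 3, and the former from −0.00 to 0.09. Neither had a miRNA without overlap. Whether the clusters differ from each other was not tested. miR-18a-5p is close in sequence to the paralog miR-18b-5p, which was too rare to be tested. In all 3 clusters together 6 were higher and 11 lower of 17 tested.

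The imprinted Dlk1-Dio3 region on chromosome 12, chr12:109563692-109747960 (GRCm38), holds 49 hairpins with 87 measured miRNAs, which are expressed from the maternal chromosome. Of its 54 tested miRNAs 43 were lower and 11 higher, with a median of −0.25, and 10 were lower and 1 higher without overlap, where 8.59% of all tested miRNAs were in each direction. The mean level was 6.54, 6.60 and 6.55 in WT and 6.60, 6.14 and 6.16 in Hete_KO. Hete_KO replicate 1 was at the WT level and replicates 2 and 3 were below it, and without replicate 1 the median was −0.40 with 48 of 54 lower. In Homo_KO, at 6.29, 5.79 and 6.11, all 54 were below WT.

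Among its abundant members miR-434-3p was at 10.34 in all 3 WT mice and at 10.15, 9.37 and 9.62 in Hete_KO, a difference of −0.62 ± 0.22 (limma adjusted p = 0.203). miR-127-3p was at 10.45, 10.95 and 10.52 in WT and at 10.58, 9.62 and 9.74 in Hete_KO, so that replicate 1 lay inside the WT range. miR-433-3p differed by −0.72 ± 0.23 without overlap (adjusted p = 0.153). With the count of lowest-value miRNAs as a covariate the region's median was −0.11, with 33 of 54 lower.

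The large cluster in introns of Sfmbt2 at chr2:10466663-10517164 (GRCm38, + strand) encodes the repetitive miR-466, miR-467, miR-669 and miR-297 miRNAs. In Hete_KO 28 of 31 tested miRNAs were lower and 3 higher, none without overlap, with a median of −0.18. In Homo_KO, against the same WT mice, 26 were higher and 5 lower with a median of 0.31. The mean level was 5.45, 5.56 and 5.41 in WT, 5.27, 4.93 and 5.63 in Hete_KO and 5.73, 5.96 and 5.75 in Homo_KO, so that the Homo_KO mice lay above all others and Hete_KO replicate 3 above WT. No member passed the test between the knockouts. Without Hete_KO replicate 2 the Hete_KO median was 0.04, and without the 3 libraries rich in muscle miRNAs 0.02. Near-identical copies share reads, so these 31 values are not independent of each other.

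By chromosome, counting miRNAs whose hairpins all lie on 1 chromosome, the shares are read against 52.6% lower and 47.2% higher among all tested miRNAs. Chromosome 14 had 12 of 13 tested miRNAs lower (92.3%), chromosome 2 had 41 of 50 (82%) and chromosome 12 had 47 of 68 (69.1%), which hold the miR-17-92, Sfmbt2 and Dlk1-Dio3 clusters. Chromosome 4 had 16 of 19 higher (84.2%) and chromosome 1 had 22 of 29 (75.9%). On the X chromosome 28 of 47 were lower (59.6%), near the share of all miRNAs, and 10 were lower without overlap, against 8.59% of all, 8 of them from the miR-322 and miR-221 clusters. Members of a cluster share a transcript, so these counts are not of independent miRNAs.

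**Figure D4:**
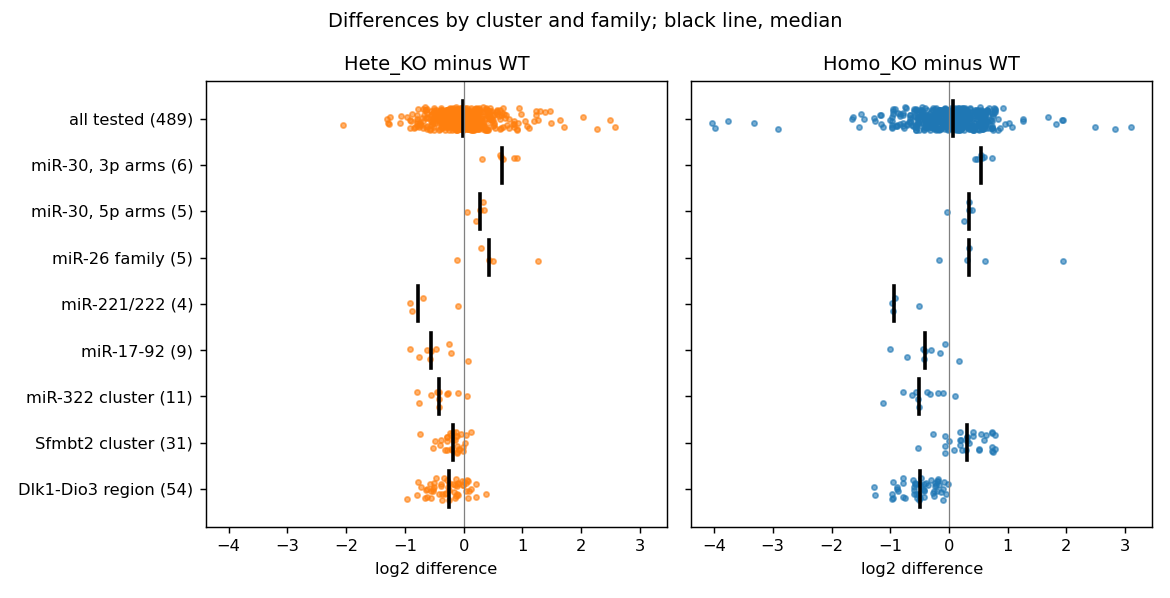
Differences from WT (x axis, log2) of the tested miRNAs in each cluster or family, as points, with a black line at the median, for Hete_KO on the left and Homo_KO on the right, which share the 3 WT libraries. The miR-30 arms lie above 0 and the miR-221, miR-17-92 and miR-322 clusters mostly below in both panels, while the Sfmbt2 cluster has a median of −0.18 for Hete_KO and 0.31 for Homo_KO.

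Of the miRNAs that mark cell types, miR-126a, which lies in Egfl7 at chr2:26591357-26591429 (GRCm38) and is the defining miRNA of endothelium, had a lower mean on both arms in Hete_KO. miR-126a-5p was at 15.04, 15.34 and 14.95 in WT and at 14.52, 14.52 and 14.65 in Hete_KO, a difference of −0.54 ± 0.14 (limma adjusted p = 0.0825) without overlap. miR-126a-3p was at 17.58, 17.99 and 17.83 in WT and at 17.58, 16.84 and 17.45 in Hete_KO, a difference of −0.51 ± 0.19 (adjusted p = 0.221), and Hete_KO replicate 1 equalled WT replicate 1. In Homo_KO the differences were −0.47 and −0.27. Neither arm passed the test in either comparison. miR-210-3p, the hypoxia miRNA, overlapped, at 7.12, 7.26 and 6.95 in WT and 6.74, 7.50 and 7.74 in Hete_KO.

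All 11 tested epithelial miRNAs of 14 measured had a higher mean in Hete_KO, with a median of 0.91, and 3 did not overlap, against 8.59% higher without overlap among all tested miRNAs. Much of this rests on a single mouse: miR-200a-3p was at 9.44 in Hete_KO replicate 1, at 6.79 and 6.18 in the other Hete_KO mice and at 5.61 to 6.23 in WT. miR-200b-3p, miR-200c-3p, miR-141-3p and miR-429-3p showed the same pattern, with 9.05, 8.89, 7.59 and 7.17 in that mouse. Without it the median was 0.50, and without the 3 libraries rich in muscle miRNAs 0.48, each with 10 of 11 higher. miR-203-3p did not follow them, since Hete_KO replicate 1 had the lowest miR-203-3p of its group. The summed level of the list, which miR-203-3p dominates, was 12.09 to 12.51 in WT and 13.12 to 13.19 in Hete_KO.

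Erythroid miRNAs were lower in all 7 of 7 tested, with a median of −0.70. miR-451a, which red blood cells hold in abundance, matures without Dicer. It was at 13.84, 13.12 and 13.24 in WT and at 11.79, 12.77 and 12.38 in Hete_KO. The difference was −1.09 ± 0.27 (limma adjusted p = 0.0825), without overlap. miR-144-3p (7.65, 9.16 and 8.82 in Hete_KO) and miR-486a-5p (9.59, 11.85 and 10.29) overlapped with WT, at 8.89 to 9.53 and 10.82 to 11.51. Hete_KO replicate 1 was the lowest mouse for all 3, and without it the list's median was −0.01 with 5 of 7 lower. Leaving out Hete_KO replicate 2 gave a median of −1.13, replicate 3 of that group −0.45 and WT replicate 1 −0.37, each with 7 of 7 lower. The summed level was 13.75 to 14.42 in WT and 12.41 to 13.94 in Hete_KO.

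Muscle miRNAs overlapped widely, with summed levels from 12.25 to 19.19 in WT and from 14.28 to 20.10 in Hete_KO. With all libraries 6 of 7 tested were lower and the median was −0.63, but this depended on single mice. Leaving out WT replicate 1, 2 or 3 gave medians of 0.34, 0.49 and −2.97, and leaving out Hete_KO replicate 1, 2 or 3 gave −0.04, −2.37 and 0.60. The median was 2.06, with 6 of 7 higher, when the 3 libraries richest in muscle miRNAs were left out. Liver miR-122 was lowest in WT replicate 1, with summed levels of 7.53 to 15.01 in WT and 13.46 to 13.86 in Hete_KO. The leukocyte list had 5 of 8 tested higher, a median of 0.07 and summed levels of 14.40 to 14.50 in WT and 14.15 to 14.64 in Hete_KO. Mural and stromal miRNAs, such as miR-143 and miR-145a, had a median of −0.00 over 10 tested, and the neural list, which contains the miR-129 arms, had 7 of 10 higher and a median of 0.23. The medians of these 3 lists took both signs over the alternatives, from −0.04 to 0.24 for leukocytes, −0.08 to 0.18 for mural and stromal cells and −0.07 to 0.45 for neural tissue. In the neural list, miR-129-1-3p and miR-129-2-3p were tested because of their level in the knockouts. The count and median of that list are therefore no support for a difference. No list had all its markers at the lowest value in every library. The part of these cell types in the differences of the miR-30, miR-17-92, miR-221 and miR-322 groups was not tested. miR-215-5p and miR-30e-3p passed the test with the muscle mean as a covariate (adjusted p = 0.00646 and 0.0235), and neither passed it without the 3 libraries richest in muscle miRNAs, where a single WT mouse remains.

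**Figure D5:**
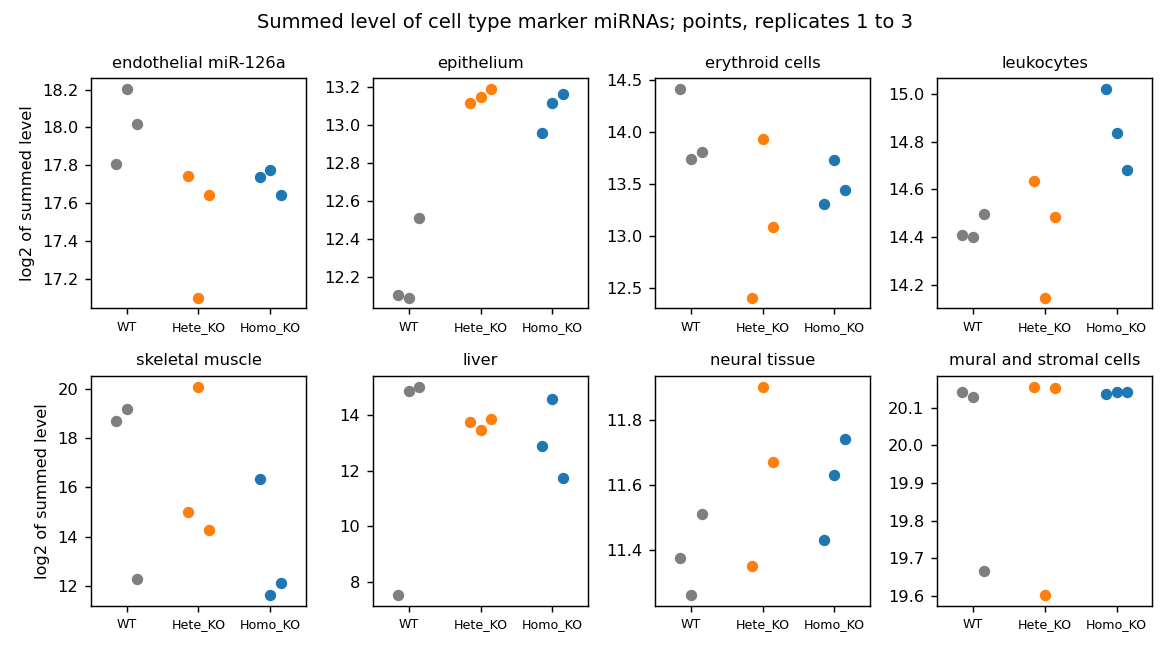
Log2 of the summed level of cell type marker miRNAs (y axis, separate scale in each panel) in the 3 mice of each genotype, as points in replicate order. Muscle and liver levels span several log2 units within WT, the epithelial sum is 12.09 to 12.51 in WT and 13.12 to 13.19 in Hete_KO, and the miR-126a sum is 17.81 to 18.20 in WT and 17.10 to 17.74 in Hete_KO.

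None of the 10 most abundant miRNAs passed the test. Among all tested miRNAs 8.59% were higher without overlap, and 17.2% did not overlap in either direction. Of the 10 most abundant, 2, miR-30e-5p and miR-30a-5p, were higher without overlap, with differences of 0.34 and 0.21. The other 8 overlapped, with differences from −0.41 for miR-21a-5p and −0.33 for let-7a-5p to 0.30 for miR-26a-5p. miR-143-3p was at 19.99, 19.99 and 19.42 in WT and at 19.99, 19.42 and 19.99 in Hete_KO, so that the groups had the same mean. Its difference ranged from −0.19 without WT replicate 3 to 0.57 without the 3 libraries rich in muscle miRNAs, where all values but that of WT replicate 3 are tied and the test passed (adjusted p = 4.83e-08). miR-21a-5p was at 18.34, 18.81 and 18.34 in WT and at 18.47, 17.58 and 18.22 in Hete_KO. let-7c-5p and let-7b-5p had differences of −0.02 and −0.01, which changed sign with single libraries left out. The 10 most abundant miRNAs held 61.2% to 66.5% of the summed level in WT and 54.7% to 67.4% in Hete_KO, lowest in Hete_KO replicate 2, the mouse richest in muscle miRNAs.

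Hete_KO and Homo_KO were tested against each other to see whether loss of 1 allele and loss of both could be told apart. None of 489 miRNAs passed the adjusted threshold (limma, 0% called), and 41 had an unadjusted p under 0.05 (8.38%), 31 higher and 10 lower in Homo_KO. This does not show that the genotypes are alike, at 3 mice each. Against the shared WT mice, Homo_KO had 16 calls (3.27%) where Hete_KO had 2. Side by side, miR-18a-5p differed from WT by −0.76 in Hete_KO and −0.71 in Homo_KO, miR-503-5p by −0.79 and −0.79, miR-221-3p by −0.91 and −0.96 and miR-203-3p by 0.85 and 0.95. miR-3964 differed by 0.84 and 1.82, and miR-451a by −1.09 and −0.53. The difference between the knockouts was 0.98 for miR-3964 (adjusted p = 0.509) and 0.56 for miR-451a (adjusted p = 0.645).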

How the data were processed

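The authors deposited 1 value per mature miRNA and library. Libraries were made from Trizol RNA with Illumina's TruSeq small RNA kit, per the labels' protocols, and the build was mm10, per the submitters' processing notes. The sources used here do not give the aligner, the counting tool or the normalization. The deposited values run from 0 to 19.99 with the same ranked values in every library, and 18 of the 21 lowest levels fit a mean over 9 libraries of log2 of a whole number plus 1, within 0.05. They were therefore read as quantile-normalized log2(x + 1). Changes in total miRNA content cannot be seen on this scale, and the values at the top move in steps.

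Tested miRNAs exceeded the lowest value of the library in 3 or more libraries and had a mean of 3.46 or more, which is log2(10 + 1). This kept 489 of 860 and left out 371. 12 tested miRNAs, in 5 sets, have identical values. All 9 libraries entered 1 limma fit (version 3.58.1, R 4.3.3) with a variance trend in eBayes and no covariate, with Benjamini-Hochberg adjustment and a threshold of 0.05. The ± values are SE of the difference. Arms were tested as 5p minus 3p in 158 hairpins. Families, clusters and marker lists were not tested but described by counts and medians. The members and lists were chosen with earlier results of these data known. miRNAs were named if called, if among the 10 higher or 10 lower with the smallest p, the 6 hairpins of smallest p, the 10 most abundant, or leading members of a list. Hairpin positions and host genes come from GENCODE vM21 (GRCm38; 850 of 860 miRNAs matched a hairpin), and mature sequences from RefSeq (698 matched). The steps were tested on simulated data. Figures were drawn with matplotlib 3.10.9. Alternatives were log2(x + 10), no filter and a stricter one, median centring, repeated quantile normalization, no variance trend, library weights, only the compared groups, the replicate number as a block, 2 covariates, and libraries left out.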

Additional observations from a re-analysis of the deposited data

Results flagged for a closer look

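miR-30f, too rare to enter the test, was at the lowest value (0) in all 3 WT libraries and above it in all 3 Hete_KO libraries, at 1.87, 1.59 and 1.59 (median 1.59), and in Homo_KO at 1.72, 1.48 and 1.48. It was picked out because its signal appears among the miRNAs left out of the comparisons. Its hairpin has the position of Mir30e on the opposite strand. Of the 371 untested miRNAs, 1 had this pattern. The opposite pattern, at the lowest value in all Hete_KO and above it in all WT libraries, was found in 8 of them. Over all 860 miRNAs, 101, 152 and 105 sat at the lowest value in the Hete_KO libraries and 70, 104 and 63 in the WT libraries.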

How the results depend on the processing

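Hete_KO against WT gave 2 called miRNAs, and also 2 with log2(x + 10), no filter on the mean, median centring, repeated quantile normalization and the muscle covariate. The number was 34 with library weights (19 higher, 15 lower), 10 with the stricter filter (262 tested, miR-215-5p not among them), 10 without the 3 libraries highest in muscle miRNAs, where a single WT library is assumed to vary like the other groups and neither call was kept, 1 without a variance trend, 1 with only Hete_KO and WT in the fit, and 0 with the count of lowest-value miRNAs as a covariate (64 at an unadjusted p under 0.05). Without a variance trend, and with only Hete_KO and WT in the fit, the call kept was miR-215-5p and miR-30e-3p was lost. Leaving out single libraries gave 1 to 24 calls. The causes were not tested, save that the stricter filter tests fewer miRNAs. Whether replicate numbers pair the mice is not settled. Deviations of same-numbered Hete_KO and WT libraries had correlations of −0.18, 0.45 and 0.55. Hete_KO replicates 2 and 3 correlated best with the WT library of the same number, and Hete_KO replicate 1 with WT replicate 3 (0.29). Deviations within a group sum to 0, so these correlations depend on each other and cannot decide it. With the replicate block 15 miRNAs were called (9 higher, 6 lower), no hairpin's arms and no miRNA between the knockouts. The arm test gave 0 calls, 1 with log2(x + 10), 3 with the stricter filter (63 hairpins) and 0 under every other alternative. Homo_KO against Hete_KO gave 4 without the 3 libraries highest in muscle miRNAs and otherwise 0.

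Of 82 single miRNAs recomputed, 73 kept their sign under every alternative run and 8 did not, and miR-143-3p, with a difference of 0, took both signs. With that count as a covariate the difference was 0.30 for let-7c-5p, 0.26 for let-7b-5p, −0.27 for miR-30c-1-3p and 0.24 for miR-222-5p. Without the 3 libraries highest in muscle miRNAs it was 0.0044 for miR-21a-5p, 0.15 for miR-222-5p, −0.066 for let-7e-5p and −0.11 for miR-1981-5p, which was −0.022 with library weights and −0.013 with the muscle covariate. With single libraries left out the range was −0.20 to 0.12 for let-7c-5p, −0.29 to 0.22 for let-7b-5p, −0.048 to 0.63 for miR-30c-1-3p, −0.34 to 0.18 for miR-222-5p, −0.023 to 0.30 for miR-152-3p and −0.14 to 0.087 for miR-1981-5p. The 6 named arm differences kept their sign. Of 58 medians of lists, clusters and regions, some with shared members, 29 changed sign under at least 1 alternative, and 42 moved by more than the SD between replicates. With 3 mice a group, an unknown depth and a scale that fixes the total, small or global changes cannot be seen.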
